A study of Mus musculus with 6 samples.

Results

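The genes described here encode the synaptic vesicle and its release machinery, a list of 46 presynaptic genes chosen by name and found among the 37620 gene identifiers of each table. All 46 were matched, and all 46 were among the 16432 genes that passed the filter on low counts and were tested. The samples are hippocampi of 13-week-old C57BL/6 mice, 3 with the genotype miR17-92 knockout and 3 wildtype, each from another litter and each sequenced as 1 library. The labels give neither the allele, nor the cells in which it acts, nor any treatment, so a deletion in a few cells and one in the whole tissue cannot be told apart from them. The question put to the data was whether the genes of transmitter release differ in level between knockout and wildtype hippocampus.

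A presynaptic terminal stores transmitter in vesicles that dock at the active zone, are primed, and fuse with the plasma membrane when calcium enters. Fusion is driven by SNARE proteins, timed by calcium sensors of the synaptotagmin family, and followed by retrieval of the membrane through clathrin-coated pits. The hippocampus is rich in such terminals, most of them glutamatergic. The knocked-out cluster encodes microRNAs, short RNAs that pair through their seed with sites in messenger RNAs and lower their stability or translation. In whole tissue, fewer cells of a type and less RNA per cell cannot be told apart.

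The microRNAs of the cluster are shown because their seeds define the sites searched for in the presynaptic genes below. Capitals mark the seed, bases 2 to 8 from the 5′ end, and the sequences and positions are those of RefSeq on GRCm38.p6, all on the plus strand of chromosome 14 between 115043684 and 115044496. Sequences 1 and 2 share a seed, as do sequences 4 and 5.
miR-17-5p: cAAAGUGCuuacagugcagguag
miR-20a-5p: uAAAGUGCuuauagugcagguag
miR-18a-5p: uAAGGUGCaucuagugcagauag
miR-19a-3p: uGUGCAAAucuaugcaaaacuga
miR-19b-3p: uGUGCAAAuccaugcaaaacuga
miR-92a-3p: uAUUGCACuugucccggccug

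Reads assigned to genes numbered 32284831, 26439693 and 57246827 in knockout replicates 1, 2 and 3, and 40100762, 43588323 and 31731263 in wildtype replicates 1, 2 and 3. The host transcript Mir17hg held 30, 35 and 37 reads in knockout and 43, 47 and 36 in wildtype, with a log2 fold of -0.22 (SE 0.28), and these few reads do not check the genotype labels. Markers of granule cells and of neurons in general were present in every library, with summed levels of 1239.8 to 1269 CPM in knockout and 1068 to 1102 CPM in wildtype for 12 dentate granule cell markers, and of 5698 to 5868 CPM in knockout and 5473 to 5742 CPM in wildtype for 12 pan-neuronal markers. CPM are counts scaled to library size, with sizes adjusted by the trimmed mean of M values (TMM), and log2 folds are knockout over wildtype. Of the 12 granule cell markers 11 had a positive log2 fold, with a median of 0.17, and their summed levels did not overlap between genotypes. With edgeR's quasi-likelihood test 3 of them, all higher, had an unadjusted p under 0.05, 25% against 10.6% of all genes tested. These were Calb1, Pter and Ahcyl2, which averaged 173, 148 and 356 CPM in knockout and 126, 112 and 301 CPM in wildtype. Their GC content was 36.8%, 38.9% and 47.9%. The genotypes overlapped for Prox1, with a log2 fold of 0.088, and C1ql2 had the negative fold, -0.15. Of the 12 pan-neuronal markers 7 had a positive fold, with a median of 0.0063. By the same test 4 of the 12, 3 higher and 1 lower, had an unadjusted p under 0.05, 33.3% against 10.6%. The genotypes did not overlap for 4 pan-neuronal markers, again 3 higher and 1 lower, 33.3% against 16.6% of all genes tested.

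No gene of the release machinery passed the test. With edgeR's quasi-likelihood test 0 of the 46 had an adjusted p under 0.05, against 0% of all 16432 genes, and DESeq2, which called 0.993% of all genes, also called 0 of the 46. DESeq2 called 0.426% of all genes higher and 0.566% lower. At an unadjusted p under 0.05 there was 1 gene, Syt4, higher in knockout, which is 2.17% of the 46 against 10.6% of all genes tested (5.05% higher, 5.58% lower). Knockout and wildtype mice did not overlap in CPM for 4 genes, 3 higher (Syt4, Syt1, Vamp2) and 1 lower (Syngr3) in knockout, which is 8.70% against 16.6% of all genes (8.29% higher, 8.34% lower). Of the 46 log2 folds 18 were positive and 28 negative, with a median of -0.024, where 8218 of all 16432 genes tested were positive and their median was 0.00. Together the reads of the 46 genes came to 2.35% ± 0.031 of the TMM-adjusted library size in knockout and 2.36% ± 0.054 in wildtype (SD, n = 3).

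The differences were small in size as well as in number. The median absolute log2 fold was 0.051 for the 46 genes and 0.085 for all genes tested, and the median standard error was 0.051 for the 46 and 0.088 for all. For 38 of the 46 the 95% interval of the fold stayed within 1.25-fold in either direction, as it did for 53.7% of all genes, a bound chosen after the values were seen. It also did so for 104 of 131 other tested vesicle cycle genes, described below, whose median standard error was 0.052. The 8 of the 46 genes whose interval reached further were Syn3, Sv2c, Vamp1, Unc13c, Rab3b, Rab3c, Slc17a6 and Slc17a8, and for Slc17a6 and Slc17a8 it also reached 1.5-fold.

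**Figure D1:**
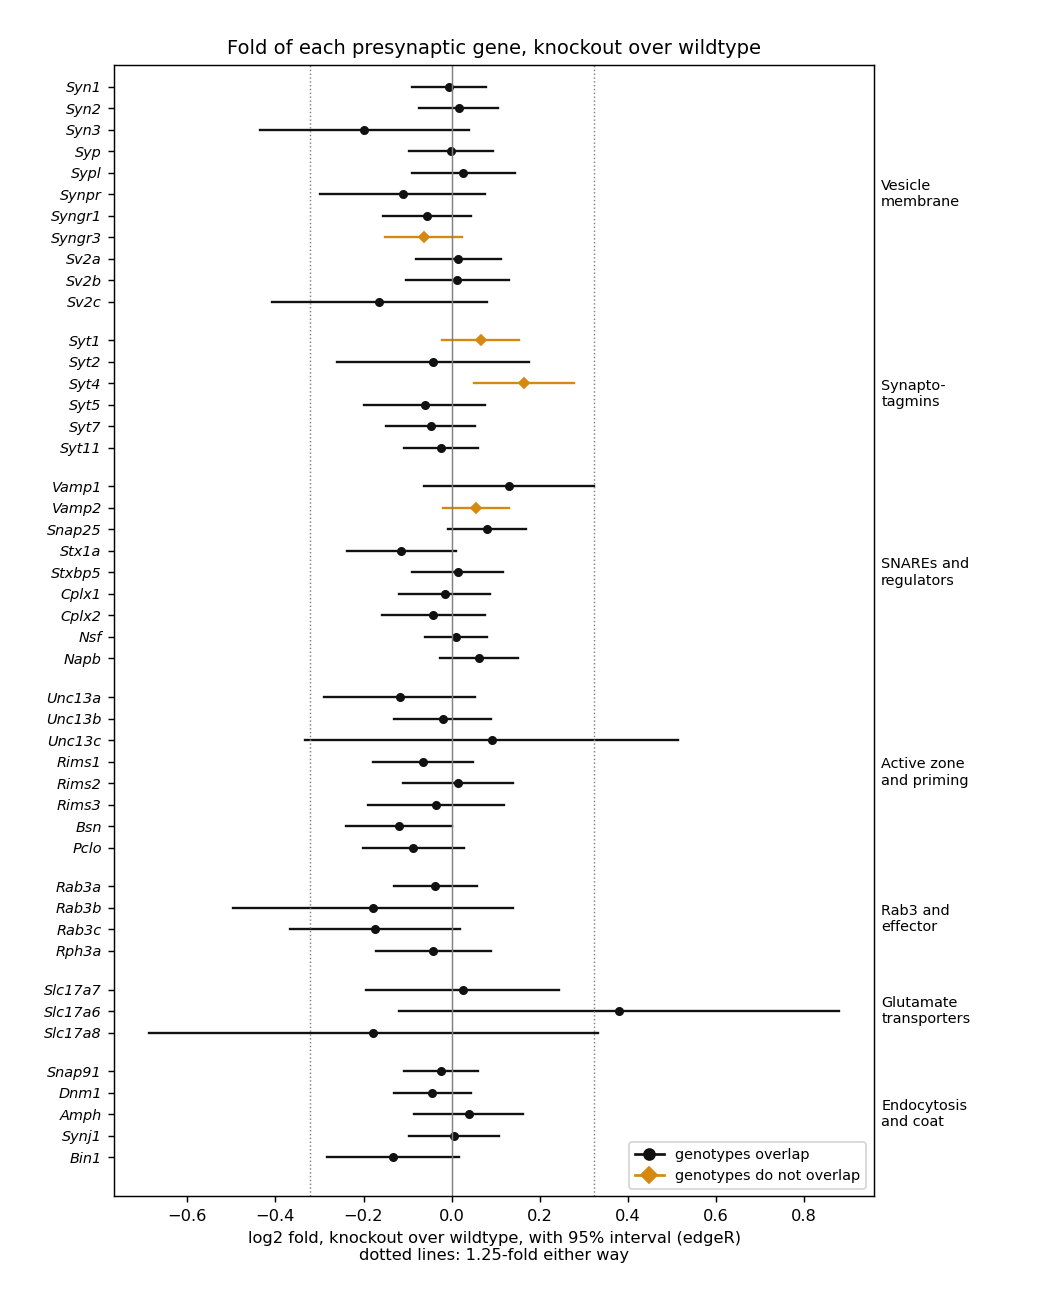
Log2 fold, knockout over wildtype, for each of the 46 presynaptic genes (points) with its 95% interval from edgeR (bars), grouped by role, with dotted lines at 1.25-fold either way. The interval of Syt4, from 0.050 to 0.28, is the only interval of the 46 that leaves out 0, and 8 intervals reach a dotted line.

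Levels of the 46 genes spanned more than 2 orders of magnitude per kilobase of exon, the scale used here wherever genes are compared with each other. Cplx2 stood highest, at 359 ± 23 CPM per kilobase in knockout and 369 ± 15 in wildtype (SD, n = 3), followed by Snap25 at 332 ± 12 in knockout and 314 ± 10 in wildtype. Syn3 stood lowest, at 0.996 ± 0.098 CPM per kilobase in knockout and 1.14 ± 0.11 in wildtype. Every gene held more than 100 reads in every library. The coefficient of variation between mice was under 10% in both genotypes for 35 genes, and the other 11 were Synpr, Sv2c, Syt2, Vamp1, Unc13a, Unc13c, Rab3b, Rab3c and the 3 glutamate transporters.

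**Figure D2:**
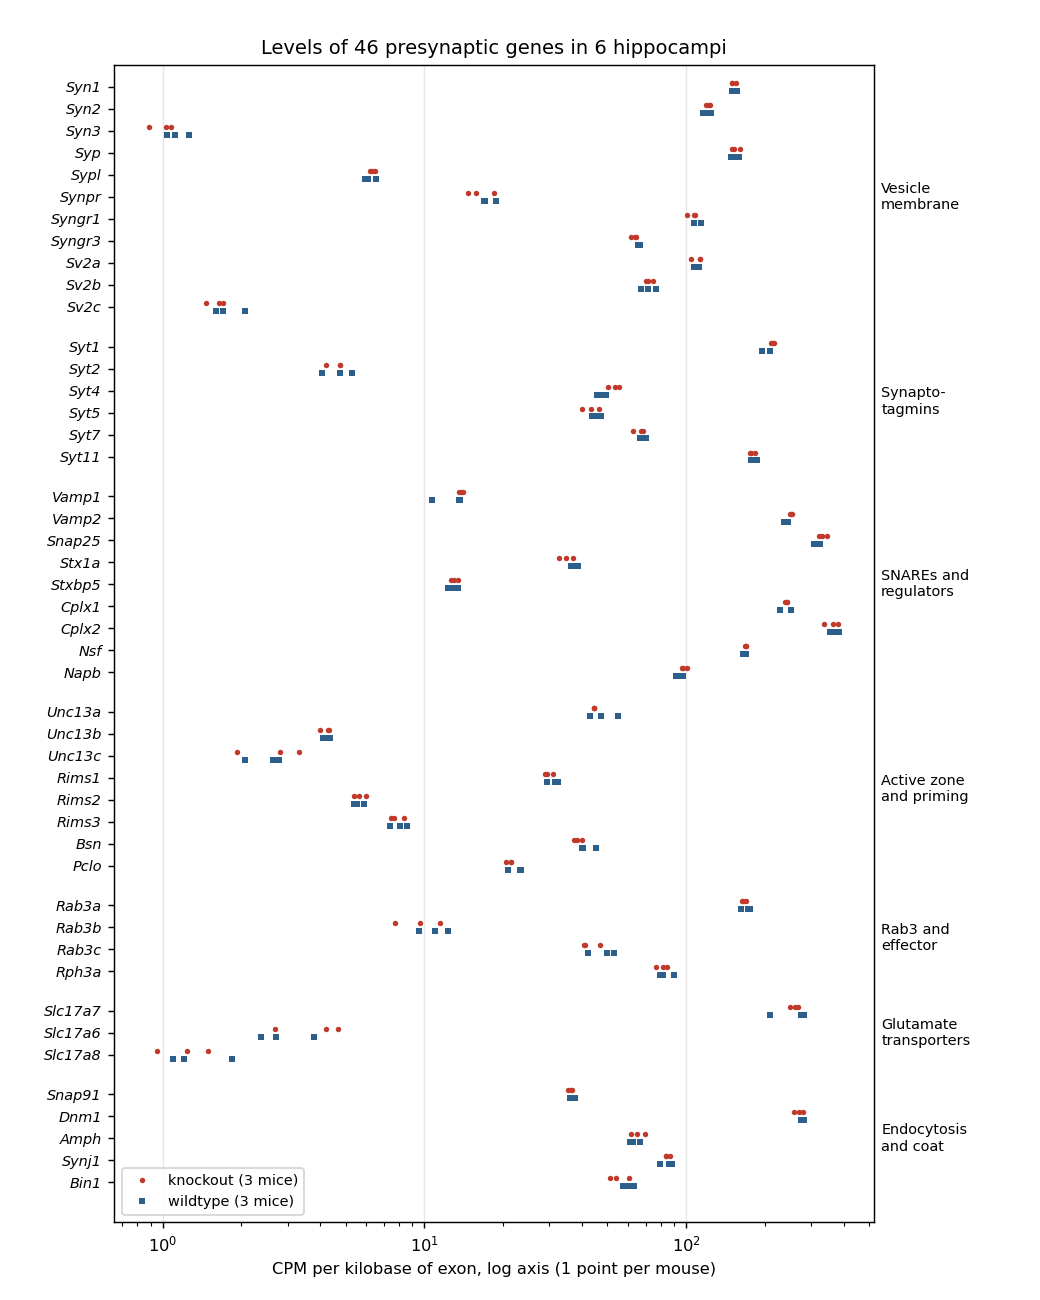
Level of each of the 46 presynaptic genes in CPM per kilobase of exon on a log axis, 1 point per mouse, knockout above wildtype within each row, grouped by role. The rows run from Cplx2, at 359 in knockout and 369 in wildtype on average, to Syn3, at 0.996 in knockout and 1.14 in wildtype, and the mice of both genotypes lie close together in most rows.

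Of the 11 genes of vesicle membrane proteins, 4 had a positive and 7 a negative log2 fold, with a median of -0.0056, and 0 had an unadjusted p under 0.05. Syp, which encodes synaptophysin, an abundant vesicle protein that binds synaptobrevin, measured 833, 792 and 779 CPM in knockout and 829, 808 and 769.8 CPM in wildtype. The 2 sets of mice cover nearly the same range, and the log2 fold was -0.0018 (SE 0.042, interval -0.098 to 0.094). Part of its exons, 16.8% of their bases, also lies in exons of a predicted gene, and without a stated strand setting reads there cannot be assigned.

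Synapsins tether vesicles in the reserve pool. Syn1 and Syn2 averaged 499 ± 11 and 851 ± 17 CPM in knockout, and 500.4 ± 13 and 842 ± 33 CPM in wildtype (SD, n = 3). Per kilobase, Syn1 made up 55.3% ± 0.98 of the 3 synapsins in knockout and 55.7% ± 1.2 in wildtype. Syn3, the scarcest synapsin, had the smallest p of the vesicle membrane genes (unadjusted p = 0.0919 with edgeR's quasi-likelihood test). It stood at 13.2, 12.6 and 10.9 CPM in knockout and at 13.7, 12.8 and 15.5 CPM in wildtype, so knockout replicate 1 lay above wildtype replicate 2. Its log2 fold was -0.20 (SE 0.10, interval -0.44 to 0.040). Of its exon bases 14.1% are shared with exons of Timp3, an inhibitor of extracellular proteases encoded within the Syn3 locus.

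Syngr3, a synaptogyrin, was among the 4 genes without overlap. Its values were 128, 133 and 132 CPM in knockout and 137, 137 and 135 CPM in wildtype. Every knockout mouse lay below every wildtype mouse, by little, and the log2 fold of -0.064 (SE 0.039) had an adjusted p of 0.599 with edgeR. Syngr1, its more abundant relative, had a log2 fold of -0.055, and Synpr, a synaptophysin relative called synaptoporin and found in hippocampal mossy fibres, one of -0.11 (SE 0.083). Among the SV2 glycoproteins, which help to prepare vesicles for fusion, Sv2a and Sv2b had log2 folds of 0.015 and 0.013. Sv2c, the scarcest form, had one of -0.16 (SE 0.11), with 15.5 ± 1.2 CPM in knockout and 17.4 ± 2.4 CPM in wildtype (SD, n = 3). Sypl, a synaptophysin-like protein that also occurs outside the nervous system, had a log2 fold of 0.027.

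Of the 6 synaptotagmins 2 had a positive log2 fold and 4 a negative one. Syt4, a synaptotagmin whose first calcium-binding domain carries a substitution that weakens calcium binding, measured 196, 215 and 208 CPM in knockout, against 177, 184 and 192 CPM in wildtype. The lowest knockout mouse, replicate 1, lay just above the highest wildtype mouse, replicate 3. The means were 206 ± 9.9 CPM in knockout and 184 ± 7.8 CPM in wildtype (SD, n = 3), and the log2 fold of 0.16 (SE 0.050, unadjusted p = 0.00993) had an adjusted p of 0.339 with edgeR's quasi-likelihood test. Of its exon bases 14.5% are shared with a predicted gene. Syt4 is a gene of low GC content, 40.7%, and with offsets for GC content and length its log2 fold was 0.094, with an unadjusted p of 0.0465 and an adjusted p of 0.682 in the edgeR fit, the smallest fold of the settings tried; its adjusted p ran from 0.148 with DESeq2 to 0.779 without knockout replicate 2. Syt4 has been described as induced by neuronal activity in rat. Of 14 immediate early genes, which neurons switch on when they fire, 13 had a negative fold. At an unadjusted p under 0.05 with edgeR 12 of the 14 were lower, 85.7% against 5.58% of all genes tested. The summed level of the 14 ran from 997 to 1011 CPM in knockout and from 1209 to 1424 CPM in wildtype. The part of neuronal activity in the value of Syt4 was not tested.

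Syt1, the main calcium sensor for fast release in forebrain neurons, measured 1758, 1782 and 1800.0 CPM in knockout and 1742, 1742 and 1617 CPM in wildtype. The groups did not overlap, knockout replicate 1 stood next to wildtype replicates 1 and 2, and wildtype replicate 3 was the lowest. The log2 fold was 0.066 (SE 0.038), and without wildtype replicate 3 it was 0.029. The remaining members were Syt2, a fast sensor of interneurons and hindbrain synapses, Syt5, Syt7, a slow sensor for asynchronous release, and Syt11, which lacks calcium binding. Their log2 folds were -0.042, -0.061, -0.048 and -0.025, in this order of genes, with standard errors of 0.096, 0.061, 0.044 and 0.037.

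**Figure D3:**
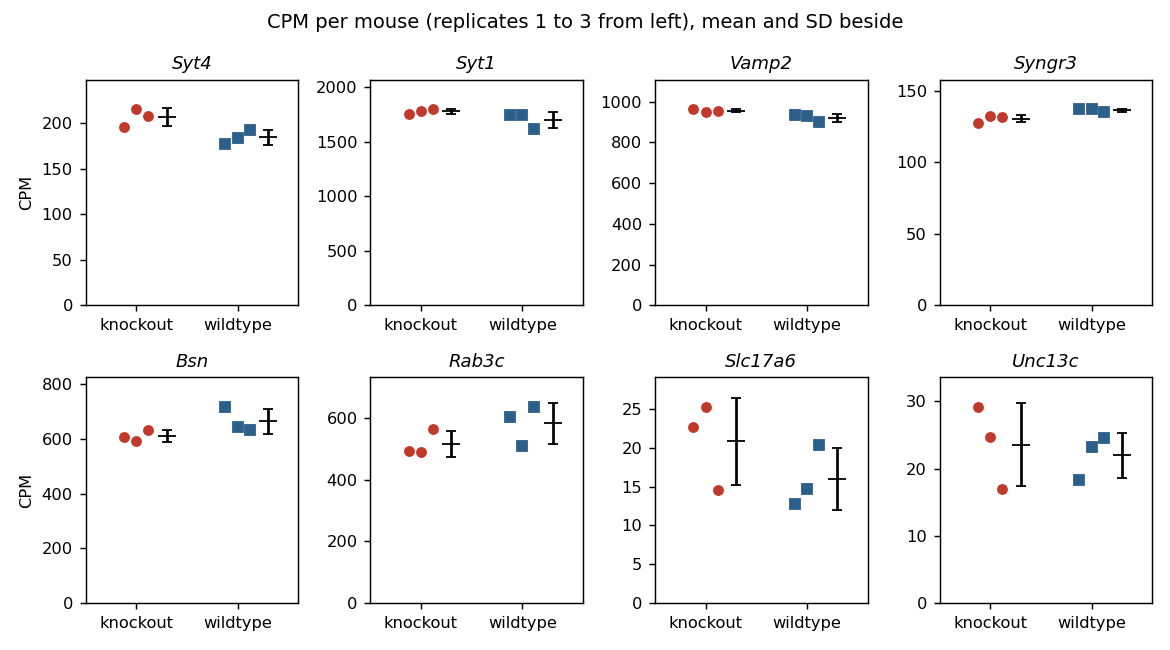
CPM per mouse for 8 presynaptic genes, knockout at the left and wildtype at the right of each panel, with replicates 1 to 3 from left to right and the mean with its SD (n = 3) beside them; each axis starts at 0. Syt4, Syt1 and Vamp2 lie higher and Syngr3 lower in every knockout mouse, while the genotypes overlap for Bsn, for Rab3c, where knockout replicate 3 lies above wildtype replicate 2, and for Slc17a6 and Unc13c.

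Among SNARE genes and their regulators 6 of 9 had a positive fold, the median was 0.014, and 0 had an unadjusted p under 0.05. Snap25 and Vamp2, the membrane-bound SNAREs of neurons that pair with syntaxin, both had positive values. Vamp2, or synaptobrevin 2, measured 964, 949 and 956 CPM in knockout, against 935, 928 and 899 CPM in wildtype. The groups did not overlap, and the log2 fold of 0.055 (SE 0.033) had an adjusted p of 0.597 with edgeR. Snap25 measured 2339, 2179.7 and 2241 CPM in knockout and 2108, 2209 and 2079 CPM in wildtype, where wildtype replicate 2 lay above knockout replicate 2. Its log2 fold was 0.080 (SE 0.039, interval -0.0088 to 0.17). Vamp1, the minor synaptobrevin, held 5.22% ± 0.11 of the synaptobrevin level per kilobase in knockout and 4.96% ± 0.53 in wildtype (SD, n = 3). Its log2 fold of 0.13 (SE 0.085) became 0.023 without wildtype replicate 3, whose 109 CPM stood below the 137 to 143 CPM of the other 5 mice.

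Stx1a, the syntaxin of the presynaptic membrane, had the smallest p of this role (unadjusted p = 0.0672 with edgeR's quasi-likelihood test) and went against the other membrane SNAREs in sign. It stood at 98.5, 86.7 and 92.5 CPM in knockout and at 97.0, 103 and 100.5 CPM in wildtype. Knockout replicate 1 lay within the wildtype range, and the log2 fold was -0.11 (SE 0.055, interval -0.24 to 0.010). Cplx2, a complexin that clamps and then assists fusion, was the most abundant member per kilobase and measured 1872, 1783 and 1649.6 CPM in knockout and 1889, 1831 and 1740.4 CPM in wildtype. The ranges overlapped for the most part, with a log2 fold of -0.042 (SE 0.051). Cplx1 made up 40.2% ± 1.6 of the complexin level per kilobase in knockout and 39.7% ± 0.59 in wildtype (SD, n = 3). Nsf, the ATPase that takes SNARE complexes apart, had the narrowest error of all members, at 1411 ± 6.5 CPM in knockout and 1400.2 ± 21 CPM in wildtype (SD, n = 3), a log2 fold of 0.011 (SE 0.031, interval -0.059 to 0.081). Its adaptor Napb and the syntaxin-binding inhibitor Stxbp5, or tomosyn, had log2 folds of 0.062 and 0.014.

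At the active zone 2 of 8 genes had a positive and 6 a negative fold, with a median of -0.050. Bsn and Pclo encode bassoon and piccolo, the giant scaffold proteins that organise release sites. Bsn measured 609, 593 and 635 CPM in knockout and 718, 643 and 635 CPM in wildtype. Its highest knockout mouse and its lowest wildtype mouse were level, and the log2 fold of -0.12 (SE 0.053, unadjusted p = 0.0525 with edgeR's quasi-likelihood test) turned to 0.018 with offsets for GC content and length. Bsn had the highest GC content of the members, 59.8%. Pclo averaged 474 ± 13 CPM in knockout and 504 ± 31 CPM in wildtype (SD, n = 3), a log2 fold of -0.087 (SE 0.051).

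Unc13a, or Munc13-1, the main priming factor of glutamatergic terminals, measured 562, 562 and 561 CPM in knockout and 597, 542 and 691 CPM in wildtype. The knockout mice were almost equal and lay within the wildtype range, which wildtype replicate 3 widened. The log2 fold was -0.12 (SE 0.075), and without wildtype replicate 3 it was -0.022. Unc13b had a log2 fold of -0.021 (SE 0.048). Unc13c, known as a presynaptic priming factor of cerebellar granule cells in mouse, had one of 0.091 with a wide error (SE 0.19). It measured 29.2, 24.6 and 16.9 CPM in knockout and 18.2, 23.2 and 24.5 CPM in wildtype. For the RIM proteins, which tie vesicles to calcium channels, the log2 folds were -0.065 for Rims1, 0.014 for Rims2 and -0.035 for Rims3, and Rims1 made up 68.8% ± 1.7 of the level of these 3 per kilobase in knockout and 69.5% ± 2.4 in wildtype (SD, n = 3).

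All 4 genes of the Rab3 group, the small GTPases of vesicle docking and their effector rabphilin, had a negative fold, with a median of -0.11, and 0 had an unadjusted p under 0.05. Rab3a, the main form, measured 376, 363 and 365 CPM in knockout and 384, 389 and 359.8 CPM in wildtype, ranges that overlap, with a log2 fold of -0.037 (SE 0.042). Rab3c measured 492, 489.8 and 564 CPM in knockout and 601, 509 and 636 CPM in wildtype. Knockout replicate 3 lay above wildtype replicate 2, and the log2 fold was -0.17 (SE 0.085, adjusted p = 0.516 with edgeR), or -0.11 to -0.26 when each library was left out in turn. Rab3c had an unadjusted p under 0.05 in 6 of the 15 alternatives, among them DESeq2, the replicate block and GC and length offsets, where its log2 folds were -0.17, -0.17 and -0.21 and its adjusted p was 0.394, 0.418 and 0.622. Its adjusted p ran from 0.369 to 0.841 over the 15. Rab3b and the effector gene Rph3a had log2 folds of -0.18 (SE 0.14) and -0.041 (SE 0.057).

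The vesicular glutamate transporters fill vesicles with transmitter and mark kinds of glutamatergic neurons. Slc17a7, or VGLUT1, the form of cortical and hippocampal pyramidal and granule cells, measured 1407, 1441 and 1346 CPM in knockout and 1519, 1473 and 1129 CPM in wildtype. The knockout mice lay between wildtype replicate 3 and the other wildtype mice, and the log2 fold was 0.025 (SE 0.097), or -0.10 without wildtype replicate 3. Slc17a7 held 98.1% ± 0.42 of the transporter level per kilobase in knockout and 98.3% ± 0.76 in wildtype (SD, n = 3). The part of granule cells, whose markers were mostly higher in knockout, in the values of Slc17a7 and Synpr was not tested.

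Slc17a6, or VGLUT2, the form of thalamic and other subcortical neurons, had the largest log2 fold of the 46 and the second largest error, 0.38 (SE 0.22, interval -0.12 to 0.88, adjusted p = 0.584 with edgeR). It measured 22.7, 25.3 and 14.6 CPM in knockout and 12.8, 14.6 and 20.4 CPM in wildtype. The 3 highest values were those of knockout replicates 1 and 2 and wildtype replicate 3, which were also the 3 libraries with the fewest reads, and its log2 fold ran from 0.22 to 0.59 when each library was left out in turn. Slc17a8, or VGLUT3, the form of some interneurons and raphe neurons, was highest in the same 3 mice, at 5.85, 7.06 and 4.50 CPM in knockout and 5.71, 5.17 and 8.72 CPM in wildtype, with a log2 fold of -0.18 (SE 0.22). The same 3 mice were also the highest for Unc13c, described after its values were seen. The part of library depth in these values was not tested. Of 12 tested markers of thalamus and habenula, 8 had a positive fold. At an unadjusted p under 0.05 with edgeR there were 2 of them, both lower, 16.7% against 10.6% of all genes tested. The summed level of the 12 was 124 to 134 CPM in knockout and 125 to 137 CPM in wildtype. The habenular factor Pou4f1 was at 0 reads in some libraries. Mossy and Cajal-Retzius cells are the hippocampal cells in which Slc17a6 is found. Of 7 tested markers of these cells 4 had a positive and 3 a negative fold, the latter Trp73 (-0.36), Ebf3 (-0.12) and Ndnf (-0.066). Only Ociad2 had an unadjusted p under 0.05 with edgeR, 14.3% of the 7 against 10.6% of all genes tested. Its log2 fold was 0.13, and it alone of the 7 showed no overlap between genotypes, 14.3% against 16.6% of all genes. The summed level of the 7 was 166 to 169.8 CPM in knockout and 155 to 163 CPM in wildtype. Within it Ociad2 averaged 107 CPM in knockout and 97.8 CPM in wildtype. The part of these cells in the value of Slc17a6 was not tested.

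Genes of coat and membrane retrieval stayed near 0 with a median log2 fold of -0.023, 2 positive and 3 negative of 5. Dnm1, the neuronal dynamin that pinches vesicles off, measured 1469, 1417 and 1353 CPM in knockout and 1479, 1455 and 1436 CPM in wildtype. Knockout replicate 1 lay within the wildtype range, and the log2 fold was -0.044 (SE 0.038). Synj1, the lipid phosphatase synaptojanin, Amph, the membrane-bending amphiphysin, and Snap91, the clathrin adaptor AP180, had log2 folds of 0.0049, 0.039 and -0.023 (SE 0.045, 0.054 and 0.037). Bin1, an amphiphysin relative that oligodendrocytes and microglia also express, measured 248, 221 and 210.2 CPM in knockout and 235, 249 and 261 CPM in wildtype. Knockout replicate 1 lay above wildtype replicate 1, and the log2 fold was -0.13 (SE 0.066). Of 12 oligodendrocyte markers 10 had a negative fold, with a median of -0.15 and a summed level of 3404 to 3646 CPM in knockout and 3525 to 4370 CPM in wildtype. Of 12 microglial markers 8 had a negative fold, with a summed level of 399.6 to 420.0 CPM in knockout and 415 to 435 CPM in wildtype. No marker of these lists was at 0 reads in any library, and the part of these cells in the value of Bin1 was not tested.

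At least 1 seed site of the cluster was found in a larger share of the presynaptic genes than of all genes. Sites are matches to the reverse complement of a seed, 7 bases, on the transcript strand of the longest 3′ UTR of each gene in GENCODE M21 on GRCm38. The motifs were GCACTTT for miR-17-5p and miR-20a-5p, GCACCTT for miR-18a-5p, TTTGCAC for miR-19a-3p and miR-19b-3p, and GTGCAAT for miR-92a-3p. Of the 46 presynaptic genes 25, or 54.3%, held at least 1 site, against 35.0% of 14542 tested genes with a 3′ UTR, in 41 sites of which none overlapped another. The miR-19 motif was in 15 of 46 genes, 32.6% against 13.8% of all genes, the miR-17 motif in 7 (15.2% against 14.9%), the miR-92a motif in 7 (15.2% against 7.98%) and the miR-18a motif in 3 (6.52% against 10.2%). The 3′ UTRs of these genes were also longer, with a median of 2328 bases against 1366 bases for all genes, and longer ones hold more matches. The frequency was not adjusted for that length.

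The median log2 fold was -0.025 for the 25 genes with a site, 10 of them positive, and -0.023 for the 21 without one, 8 of them positive. Over all tested genes with a 3′ UTR it was 0.011 for those with a site and -0.0057 for those without one. For the 15 genes with the miR-19 motif it was -0.041, 5 of them positive, against 0.013 for all genes with that motif. For the 7 with the miR-17 motif (Synpr, Sv2c, Stxbp5, Cplx1, Rab3c, Slc17a7 and Slc17a8) it was -0.11, 2 of them positive, against 0.012 for all genes with that motif. For the 3 with the miR-18a motif it was -0.035, 1 of them positive, and for the 7 with the miR-92a motif 0.0049, 4 of them positive. All genes with these 2 motifs had medians of 0.00019 and 0.014, in this order. The 15 genes with the miR-19 motif were Syn1, Sypl, Sv2a, Sv2c, Syt1, Syt2, Syt7, Syt11, Vamp1, Napb, Unc13a, Bsn, Pclo, Rab3b and Rph3a. Windows of 30 bases are shown for genes of different roles, with the site in capitals, from the 3′ UTR of the transcript in the 5′ to 3′ direction. The windows of Syt1 and Bsn show the miR-19 motif in a gene with a positive and in a gene with a negative fold, those of Slc17a7 and Rab3c the miR-17 motif, and that of Slc17a6 the miR-92a motif in the gene with the largest fold.
Syt1: atcctgttttaaTTTGCACaaatttaagtg
Bsn: gctcgaagcttcTTTGCACgatttcattca
Slc17a7: ccccaaatccttGCACTTTattctcctggg
Rab3c: tggatgctccctGCACTTTcgttgtctgcc
Slc17a6: caaatctgctagGTGCAATggaaaaattta

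Rab3c held the miR-17 motif and the miR-92a motif at 2 places each beside a log2 fold of -0.17, while Stxbp5, with the miR-17 motif at 3 places, had one of 0.014. A match describes these letters and not a site in use, and the values are those of whole tissue.

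Folds of the presynaptic genes went with base composition, as those of all genes did. The 23 members of lower GC content (median 45.3%) showed 12 positive folds around a median of 0.0049, and the 23 of higher GC content (median 55.3%) showed 6 around a median of -0.041. All genes tested, split at the same GC content of 49.3%, had medians of 0.043 in the lower and -0.040 in the higher part. Across the 46 genes Spearman's rho between GC content and log2 fold was -0.29, and across 15801 genes it was -0.36; genes of 1 library are not independent, and no test was made. With offsets for GC content and length the median log2 fold of the 46 was -0.0066.

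**Figure D4:**
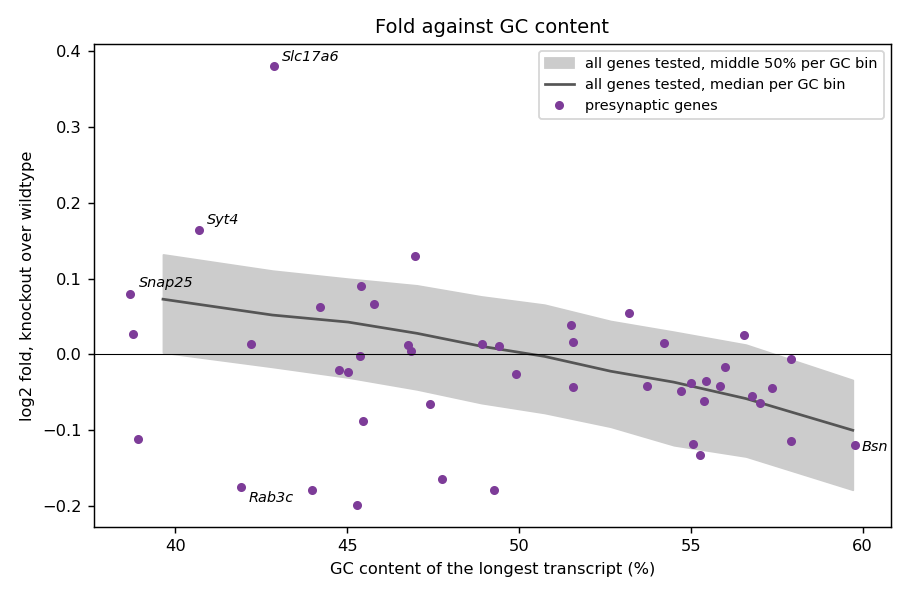
Log2 fold, knockout over wildtype, against the GC content of the longest transcript for the 46 presynaptic genes (points), with the median of all genes tested in 10 GC bins (line) and their middle 50% (band). The line runs from 0.073 at a GC content of 39.6% to -0.10 at 59.7%, with Syt4 above the band and Rab3c below it.

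The wider vesicle cycle was described by 134 further genes listed by role, of which 131 were tested. None had an adjusted p under 0.05 with edgeR, and at an unadjusted p under 0.05 there were 9 higher and 11 lower in knockout, 15.3% against the 10.6% of all genes; with offsets for GC content and length there were 13, of them 9 higher and 4 lower, 9.92% against 7.23% of all genes in that fit. The median log2 fold was -0.0053. By role, the counts at an unadjusted p under 0.05 were 7 of 29 for active zone and priming genes (3 higher, 4 lower), 5 of 31 for endocytosis and coat (2 and 3), 3 of 16 for calcium sensors (1 and 2), 3 of 16 for the proton pump (2 and 1), 1 of 24 for SNAREs and their regulators (higher) and 1 of 15 for vesicle membrane proteins (lower).

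Of the higher genes, those of smallest p were Syt10, Eps15, Lin7c, Ppfia2, Stxbp2 and Fcho2. Their GC content was 47.6%, 41.2%, 37.3%, 40.7%, 54.0% and 39.6%, in this order. Syt10, a synaptotagmin described in rat as induced by seizures, measured 8.40, 9.04 and 8.48 CPM in knockout, against 5.81, 6.88 and 6.50 CPM in wildtype, without overlap. Its log2 fold was 0.43 (SE 0.10, adjusted p = 0.276 with edgeR). Eps15, a scaffold of coated pits, measured 405, 430.3 and 422 CPM in knockout and 386, 354 and 369 CPM in wildtype, also without overlap, a log2 fold of 0.18 (SE 0.045). The log2 folds of Lin7c and Ppfia2, scaffold proteins of the presynaptic membrane and active zone, were both 0.13. That of Fcho2, which nucleates coated pits, was 0.14, and that of Stxbp2, a Munc18 form of non-neuronal cells, 0.59 (SE 0.21). Stxbp2 measured 50.2, 45.2 and 40.47 CPM in knockout and 29.2, 40.50 and 19.6 CPM in wildtype. Wildtype replicate 2 thus lay just above knockout replicate 3, and the wildtype mice differed widely. Of the exon bases of Ppfia2 24.5% are shared with Acss3 and C230021G24Rik.

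Of the lower genes, those of smallest p were Pacsin1, Ap2a1, Rimbp2, Ppfia3, Epn1 and Atp6v0c. Their GC content was 57.4%, 59.3%, 53.5%, 60.9%, 62.5% and 52.0%, in this order. Over all genes tested the median log2 fold ran from 0.073 at a GC content of 39.6% to -0.10 at 59.7%. The folds given for the named higher and lower genes are those without offsets for GC content and length, and the part of GC content in them was not tested. Pacsin1, a membrane-bending partner of dynamin also called syndapin, measured 380, 371 and 366 CPM in knockout and 419, 433 and 406 CPM in wildtype, without overlap, a log2 fold of -0.17 (SE 0.039, adjusted p = 0.270 with edgeR, the smallest of the 131). Rimbp2, which links RIM proteins to calcium channels, measured 144, 134 and 129 CPM in knockout and 166, 149 and 165 CPM in wildtype, a log2 fold of -0.23 (SE 0.059). Ap2a1, a subunit of the AP2 clathrin adaptor, Ppfia3, a liprin of the active zone, and Epn1, or epsin, had log2 folds of -0.17, -0.16 and -0.20; 16.7% of the exon bases of Ap2a1 are shared with Fuz. Atp6v0c, the ring subunit of the proton pump, measured 41.2, 38.7 and 42.5 CPM in knockout and 69.5, 42.2 and 69.4 CPM in wildtype. Wildtype replicate 2 lay within the knockout range, the log2 fold was -0.56 (SE 0.17), and reads of this gene may be split with its pseudogenes, so its value is uncertain.

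**Figure D5:**
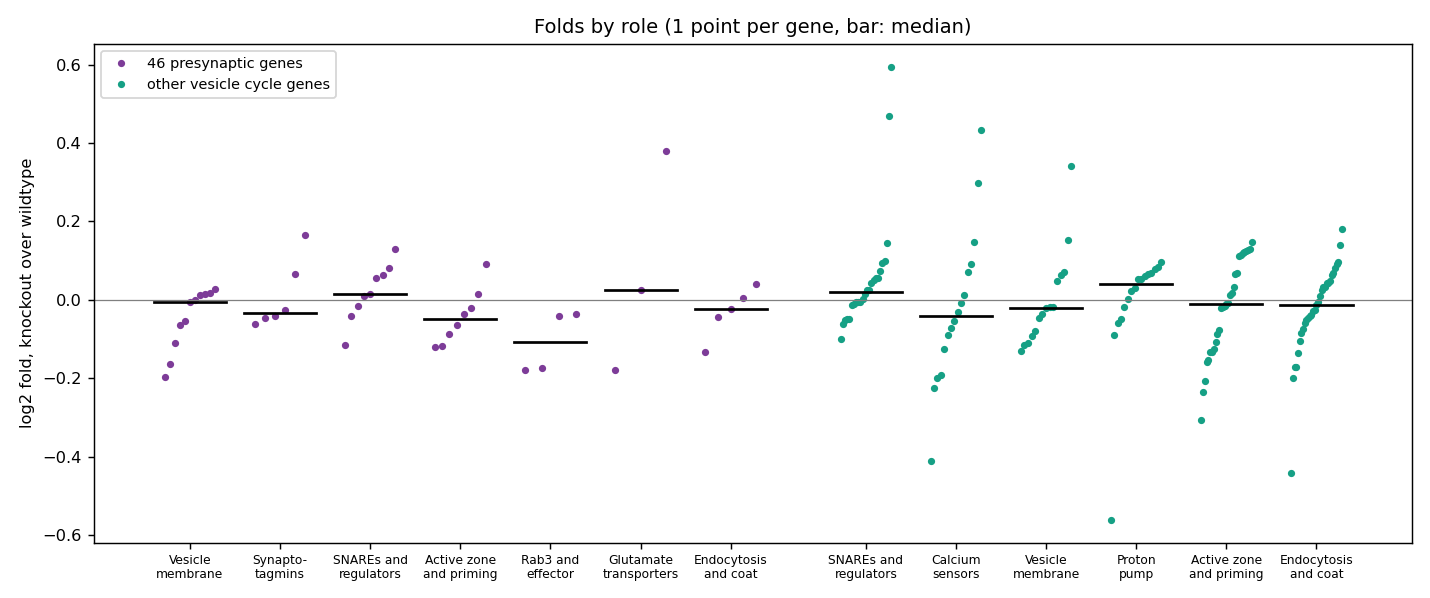
Log2 folds, knockout over wildtype, of the 46 presynaptic genes by role (left) and of 131 other tested vesicle cycle genes by role (right), 1 point per gene with the median as a bar. The medians of the 46 genes by role run from -0.11 for the Rab3 group to 0.025 for the glutamate transporters, and those of the other genes from -0.043 for calcium sensors to 0.041 for the proton pump.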

How the data were processed

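The values are raw counts of reads, which the authors deposited as a table for each of 6 mice. The submitters' processing notes list mm9 as the build, and as tools FastQC 0.10.1, STAR 2.3.0e, SAMtools, DESeq2 and HTSeq, with no roles. Annotation and strandedness: not given in the sources used here. The 5 closing entries of each file, which have no gene, held 38.0% to 40.3% of the total and were left out. Gene totals ran from 26439693 to 57246827, and precision is limited by the 3 mice per genotype.

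GENCODE M21 (GRCm38) supplied symbols, exon lengths, 3′ UTRs and the exon bases that genes share, and 32897 of 37620 identifiers matched a symbol. Genotypes were compared in edgeR 4.0.16 (quasi-likelihood; R 4.3.3, limma 3.58.1) with filterByExpr, TMM factors, genotype alone and Benjamini-Hochberg adjustment over all genes tested at 0.05. DESeq2 1.42.0, limma-voom, other factors, filters and offsets were alternatives. CPM per kilobase divides by the union of exons. Scripts were tested on simulated counts.

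The genes, lists and rules were chosen with earlier results of these data known. Values in each mouse are given for genes at an unadjusted p under 0.05, and for the most abundant gene and the gene of smallest p of each role; Syngr3, Vamp2, Snap25, Slc17a8 and Unc13c were added after their values were seen. The 6 other vesicle cycle genes of smallest p per direction are named. Same-numbered mice come from different litters and were not paired.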

Additional observations from a re-analysis of the deposited data

How the results depend on the processing

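The number of presynaptic genes called at an adjusted p under 0.05 was 0 in edgeR as reported and in all 15 alternatives. At an unadjusted p under 0.05 there was 1 as reported, 2 with upper quartile factors, with robust dispersion or with GC and length offsets, 3 with DESeq2 or with a replicate block, 5 without a filter beyond 1 read, and 2 to 7 when a library was left out: 4, 2 and 5 without knockout replicates 1, 2 and 3, and 2, 7 and 4 without wildtype replicates 1, 2 and 3. Syt4 was among them in each setting. In the same fits 6.36% to 11.4% of all genes tested had such a p, and the share of the 46 was above that of all genes in 3 of them: 10.9% against 8.11% without the filter, 10.9% against 9.22% without knockout replicate 3, and 15.2% against 9.20% without wildtype replicate 2. Among all genes tested, 62 were called without that filter, 163 with DESeq2, 15 with robust dispersion and 0 to 17 when a library was left out (17 without knockout replicate 3, 16 without wildtype replicate 2), against 0 as reported. The other vesicle cycle genes at an unadjusted p under 0.05 numbered 13 with GC and length offsets (9.92% against 7.23% of all genes), 15 to 24 when a library was left out, and 20 as reported. The median log2 fold of the 46 was -0.024 as reported, -0.0066 with GC and length offsets, and -0.048 to -0.0093 when a library was left out. With a replicate block edgeR called 0 genes; deviations of same-numbered mice correlated at -0.10, -0.02 and -0.15, no mouse correlated best with its own number, and the numbers pair nothing.

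Over 690 pairs of a member and an alternative setting, the log2 fold kept its sign in 647 and reversed it in 43. Of the reversals 32 came on leaving out a library. Only the genes that reversed are listed here. With GC and length offsets the log2 folds became 0.065 for Syn1, -0.040 for Sypl, 0.0058 for Syngr1, -0.0031 for Sv2b, -0.010 for Stxbp5, 0.017 for Cplx1, 0.021 for Rims3, 0.018 for Bsn, 0.0049 for Rph3a, 0.028 for Dnm1 and -0.011 for Synj1. Leaving out a library gave ranges of -0.022 to 0.016 for Syn1, -0.0034 to 0.051 for Sv2a, -0.047 to 0.013 for Unc13b, -0.097 to 0.29 for Unc13c, -0.033 to 0.022 for Syp, -0.018 to 0.037 for Stxbp5, -0.023 to 0.048 for Rims2, -0.035 to 0.062 for Sv2b, -0.14 to 0.051 for Syt2, -0.086 to 0.0050 for Cplx2, -0.0100 to 0.081 for Amph, -0.040 to 0.035 for Synj1, -0.0058 to 0.070 for Sypl, -0.064 to 0.0079 for Cplx1, -0.012 to 0.046 for Syn2, -0.0042 to 0.017 for Nsf, -0.092 to 0.015 for Rims3, -0.077 to 0.011 for Rph3a, -0.10 to 0.10 for Slc17a7 and -0.34 to 0.078 for Slc17a8. The cause of these reversals was not tested.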
